A study of Solanum phureja with 20 samples.

Results

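The direct comparison of tetraploid with diploid leaves of a potato ploidy series rests on 4 two-colour spotted arrays out of 20 in the series. They are the leaf arrays whose titles pair the tetraploid line, 4x, with the diploid line 2xR3 or with the diploid line 2xR5, in replicates 1 and 2. Unless said otherwise, estimates and p-values come from a fit of all 12 leaf arrays, of which these 4 hold the direct ratios. Both steps of the series are chromosome doublings of 1 monoploid plant (1x, 12 chromosomes) from a Solanum phureja background, so 4x and the diploids carry the same genome in different copy number, and 4x against the diploids is the second doubling. Growing leaflets of 6 plants per line were taken 20 days after planting, from a growth chamber with days of 15 h at 23.5 °C and nights of 9 h at 15.5 °C. The tetraploid is 1 line and each diploid is 1 line, so a difference belongs to these lines. The replicates are called biological in the labels, which do not say which plants each one holds; the p-values reflect only the spread among these RNA samples.

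An autopolyploid carries extra copies of its own chromosomes, with no second parental genome. Doubling is known to enlarge cells in many plants, and the question of this design is which transcripts change relative to the others when the copy number of every gene changes at once. Each array labels 1 line with Cy3 and the other with Cy5 and gives only their ratio at each spot, so no level of a transcript in a line can be read, and the labelled tissue could not be checked against marker levels. A ratio is also relative to the other transcripts on the array: RNA per cell was not measured, and fewer cells of a type cannot be told apart from less RNA per cell. Every value below is a log2 ratio of 4x over diploid or a log2 difference of 4x minus diploid. The sign of each rests on reading the deposited ratios as Cy5 over Cy3. The labels do not state this order, though it is limma's usual one, and under the reverse order every sign would turn. On the 4 arrays 17366 to 18629 spots had a value. A clone is a cDNA printed as a pair of duplicate spots, and 6001 clones had a value on all 12 leaf arrays. Clones of 1 gene are told apart by a number that only names them.

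Tetraploid leaflets had less transcript of 2 flavonoid enzymes, F3H and FLS, and of a photosystem II subunit, PSBR, and more of a pectin methylesterase, an ethylene receptor and a D-type cyclin, than diploid leaflets. FLS and PSBR fell in 1 of their 2 tested clones each. The F3H clone and that FLS clone were 2.55-fold and 2.43-fold lower, while most other changes were under 2-fold. With the arrays scaled to a common spread, the calls of PSBR, ERS and CYCD3.3 were lost (limma, adjusted p = 0.052, 0.071 and 0.080), with their direction kept. A fit of only the 4 arrays that pair 4x with a diploid kept the calls of F3H and FLS clone 4 (limma, adjusted p = 0.038 and 0.0061). In that fit PME1, PSBR clone 6, CYCD3.3 and ERS kept their direction but did not pass (limma, adjusted p = 0.058, 0.17, 0.33 and 0.43). It has no term for the dye, and the 2 arrays of each diploid line have opposite dyes. A clone's dye effect, described below, therefore stays in the spread behind these p-values. Of the 6001 clones, 198 (3.3%) differed between 4x and the mean of both diploids (limma, Benjamini-Hochberg adjusted p under 0.05 over all clones), 117 higher in 4x (1.95%) and 81 lower (1.35%). Among them the median size of the difference was 0.50, 4 clones were at least 2-fold higher and 12 at least 2-fold lower. The platform annotation gives exactly 1 gene symbol for 26 of the 198 clones, 16 of 10 genes that rose and 10 of 9 genes that fell. These 26 are called the named clones below. Another 171 carry no symbol and 1 carries several. The plot of the named clones shows these 26 with their values in each replicate.

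**Figure D1:**
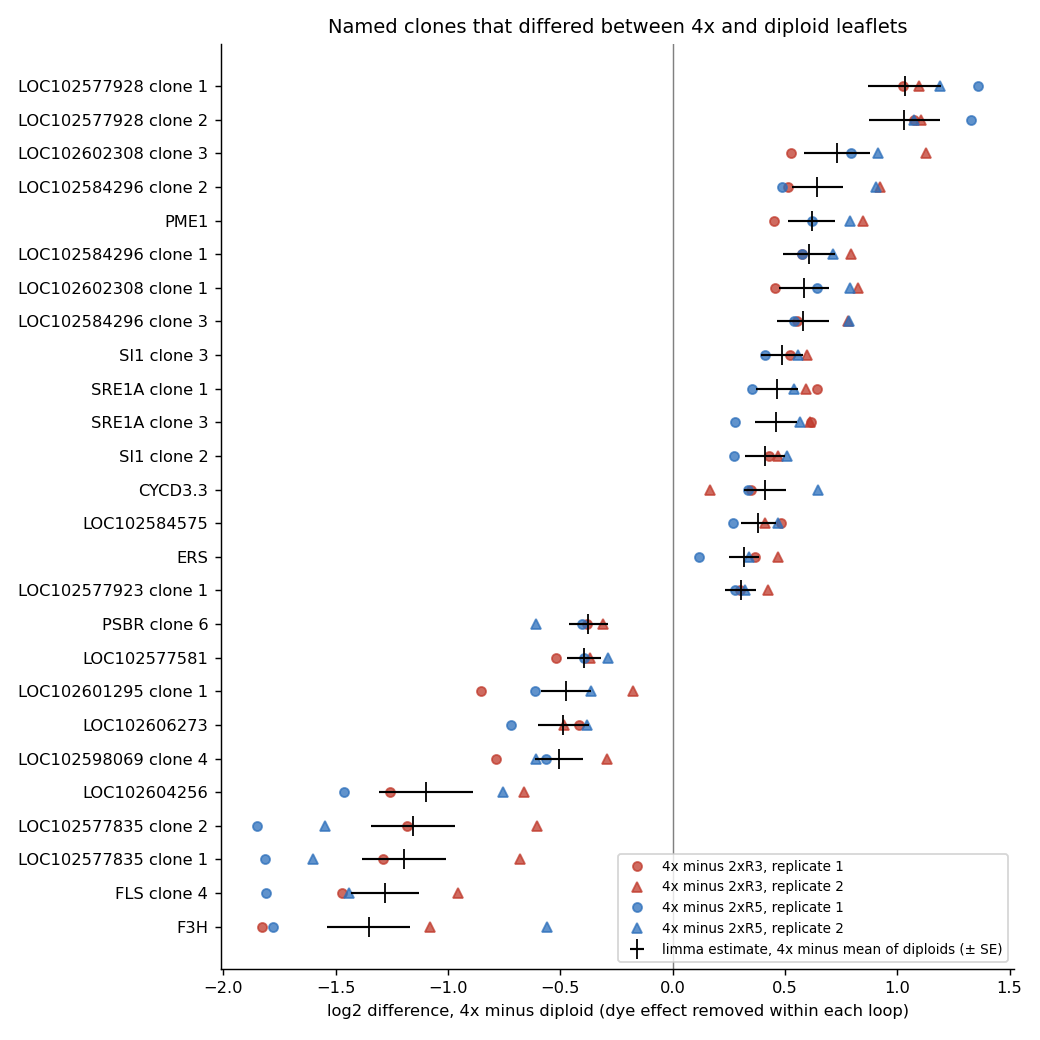
The 26 clones with 1 gene symbol that differed between 4x and the diploids, by log2 difference (horizontal axis). Red points are 4x minus 2xR3 and blue points 4x minus 2xR5, circles replicate 1 and triangles replicate 2, each solved within its loop of 4 arrays so that the dye effect cancels. The black bar is the limma estimate of 4x minus the mean of the diploids with its SE. All 4 points of each of the 26 clones lie on the same side of 0, and the 2 flavonoid enzyme clones lie lowest.

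Flavonoid enzymes came first among the falls with a known function. F3H, flavanone 3-hydroxylase, which makes dihydroflavonols in the middle of the flavonoid pathway, stood at -1.92 and -0.99 on the 2xR3 arrays of replicates 1 and 2, and at -1.68 and -0.66 on the 2xR5 arrays. All 4 ratios were below 0, and those of replicate 1 were further from 0 than those of replicate 2 against either diploid. The estimate was -1.35 ± 0.18 (SE, n = 2 replicates with direct arrays, limma, adjusted p = 0.0046), a 2.55-fold difference. FLS, flavonol synthase, turns dihydroflavonols into flavonols. Its clone 4 stood at -1.38 and -0.96 on the 2xR3 arrays and at -1.90 and -1.44 on the 2xR5 arrays. The 4 ratios were again all below 0, with the 2xR5 array the lower one in each replicate. Its estimate was -1.28 ± 0.15 (limma, adjusted p = 0.0046), 2.43-fold.

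FLS is printed as several clones, and they did not move alike. Clone 1 stood at 0.05 and 0.40 on the 2xR3 arrays and at -0.05 and 0.49 on the 2xR5 arrays, with an estimate of 0.21 (limma, adjusted p = 0.36). Clones 2 and 3 had no complete set of values in replicate 3. In a fit on replicates 1 and 2 alone, in which 483 of 8222 clones passed (5.87%), they stood at -0.31 and -0.01 (limma, adjusted p = 0.072 and 0.95). Clone 3 split by dye, since it stood at 0.67 and 0.53 on the arrays with 4x in Cy5 and at -0.70 and -0.55 on those with 4x in Cy3. F3H was measured by 1 clone.

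Photosynthesis was represented by PSBR, a subunit of photosystem II. PSBR clone 6 stood at -0.18 and -0.37 on the 2xR3 arrays and at -0.61 and -0.55 on the 2xR5 arrays, all below 0. It fell by 0.38 ± 0.09 (limma, adjusted p = 0.042). PSBR clone 4 stood at -0.55 and -0.26 against 2xR3 and at -0.41 and -0.44 against 2xR5, with an estimate of -0.36 that did not pass (limma, adjusted p = 0.065). The fit on replicates 1 and 2 alone held 3 PSBR clones, of which clones 6 and 4 passed, at -0.43 and -0.42 (limma, adjusted p = 0.029 and 0.043). PSBR clone 5 stood there at -0.23 and did not pass (adjusted p = 0.24).

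Cell wall genes could be recognised only by their symbol, and of the cell wall list only PME1 was tested. PME1, a pectin methylesterase that removes methyl groups from cell wall pectin, rose. Its ratios were 0.52 and 0.65 on the 2xR3 arrays and 0.56 and 0.98 on the 2xR5 arrays. All 4 were above 0, and the highest was the 2xR5 array of replicate 2. The estimate was 0.62 ± 0.11 (limma, adjusted p = 0.011), 1.54-fold, and PME1 also passed against each diploid line alone, at 0.57 against 2xR3 and 0.67 against 2xR5 (limma, adjusted p = 0.037 and 0.016).

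In the hormone and development list 4 of the 8 tested clones rose and 0 fell, where 1.95% of all clones rose and 1.35% fell. This list was chosen with earlier results of these data known, so its share of calls is no test of it. CYCD3.3, a D-type cyclin of the kind that drives entry into the cell cycle, stood at 0.54 and 0.09 on the 2xR3 arrays and at 0.15 and 0.73 on the 2xR5 arrays. All 4 were above 0 but spread widely, and the 2 higher ones were the arrays with 4x in Cy5. Its estimate was 0.41 ± 0.09 (limma, adjusted p = 0.037). ERS, an ethylene receptor, which holds the ethylene response off until the hormone binds, stood at 0.62 and 0.22 on the 2xR3 arrays and at -0.13 and 0.59 on the 2xR5 arrays. It was the only one of the 26 named clones with a ratio of the other sign. Its dye effect was 0.25, and with that removed its 4 values were 0.37 and 0.47 against 2xR3 and 0.12 and 0.34 against 2xR5, with an estimate of 0.32 ± 0.07 (limma, adjusted p = 0.026). On replicates 1 and 2 alone CYCD3.3 and ERS stood at 0.38 and 0.33 and passed over the 6001 clones (limma, adjusted p = 0.047 and 0.033) but not over the 8222 clones (adjusted p = 0.069 and 0.0501). The ERS call was also lost when each array was taken as a separate value with no replicate block, at 0.31 (limma, adjusted p = 0.075). The 75% rule for missing values gave ERS the same estimate, adjusted over 7470 clones (limma, adjusted p = 0.095). Both leave the dye effect in the spread. With a dye term added to the fit with no replicate block, ERS passed (limma, adjusted p = 0.016).

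The other 2 clones of this list that rose were of SRE1A, and what SRE1A encodes was not established here. SRE1A clone 1 stood at 0.62 and 0.64 on the 2xR3 arrays and at 0.38 and 0.49 on the 2xR5 arrays, with an estimate of 0.46 ± 0.09 (limma, adjusted p = 0.021). SRE1A clone 3 had the same estimate to 2 decimals (adjusted p = 0.024), and clone 2 stood at 0.41 and did not pass (adjusted p = 0.054). IAA2 and IAA3, Aux/IAA proteins that repress auxin response genes, stood at -0.25 and -0.22 and did not pass (limma, adjusted p = 0.14 and 0.13). BEL5 clone 1, of a BEL1-like homeodomain protein, stood at -0.04.

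SI1 accounted for both calls of the defence and wound list, in which 2 of 7 clones rose (1.95% of all clones) and 0 fell (1.35%). What SI1 encodes was not established here, so its calls do not speak for defence genes. SI1 clone 3 stood at 0.42 and 0.72 on the 2xR3 arrays and at 0.51 and 0.44 on the 2xR5 arrays, with an estimate of 0.49 ± 0.09 (limma, adjusted p = 0.019). SI1 clone 2 rose by 0.41 (adjusted p = 0.034), and clone 1 stood at 0.34 (adjusted p = 0.060). STWRKY8 clone 1, of a WRKY transcription factor, stood at -0.43 and did not pass against the mean of the diploids (limma, adjusted p = 0.060). VPE2 clone 1, of a vacuolar processing enzyme, stood at 0.31 (limma, adjusted p = 0.10), and both R1 clones lay within 0.04 of 0. What R1 encodes was not established here either, so its place in this list rests on the symbol alone.

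The listed genes of starch, transport and central metabolism had no call, and other genes of these processes could not be recognised. GBSS, the granule-bound synthase that makes amylose, stood at 0.45 and 0.35 in 2 clones (limma, adjusted p = 0.064 and 0.079). Its clone 1 had 0.12 and 1.04 on the 2xR3 arrays and 0.37 and 0.60 on the 2xR5 arrays, so replicate 2 was higher than replicate 1 against either diploid. Both GBSS clones passed in the fit on replicates 1 and 2 alone, at 0.53 and 0.41 (limma, adjusted p = 0.034 and 0.046). AMYA1, an alpha-amylase, stood at 0.09. The proton pumps PHA1 and PHA2 and the potassium channel KST1 lay between 0.02 and 0.24 in 6 clones, all above 0. In amino acid metabolism 10 of 11 clones were above 0 and in glycolysis, fermentation and respiration 9 of 10, at medians of 0.16 and 0.11, but 0 passed in either. Most of these clones share a gene: 8 of the 11 are of METK1, an S-adenosylmethionine synthetase, and 8 of the 10 of GAPDH, glyceraldehyde-3-phosphate dehydrogenase. Of all 6001 clones 53.9% were above 0, with a median of 0.01. The 6 redox clones, of CAT1, DHAR, DHAR2 and NAD(P)H:QR, lay between -0.21 and 0.12, and the intrinsic protein MIP2 at 0.01. Over the 11 lists, 7 of 58 clones rose and 3 fell, against 1.95% and 1.35% of all clones. The lists were chosen with earlier results of these data known, so these shares are no test of the lists. Some of the rises are also of the same gene, SRE1A or SI1. The plot of the gene lists shows each of these clones.

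**Figure D2:**
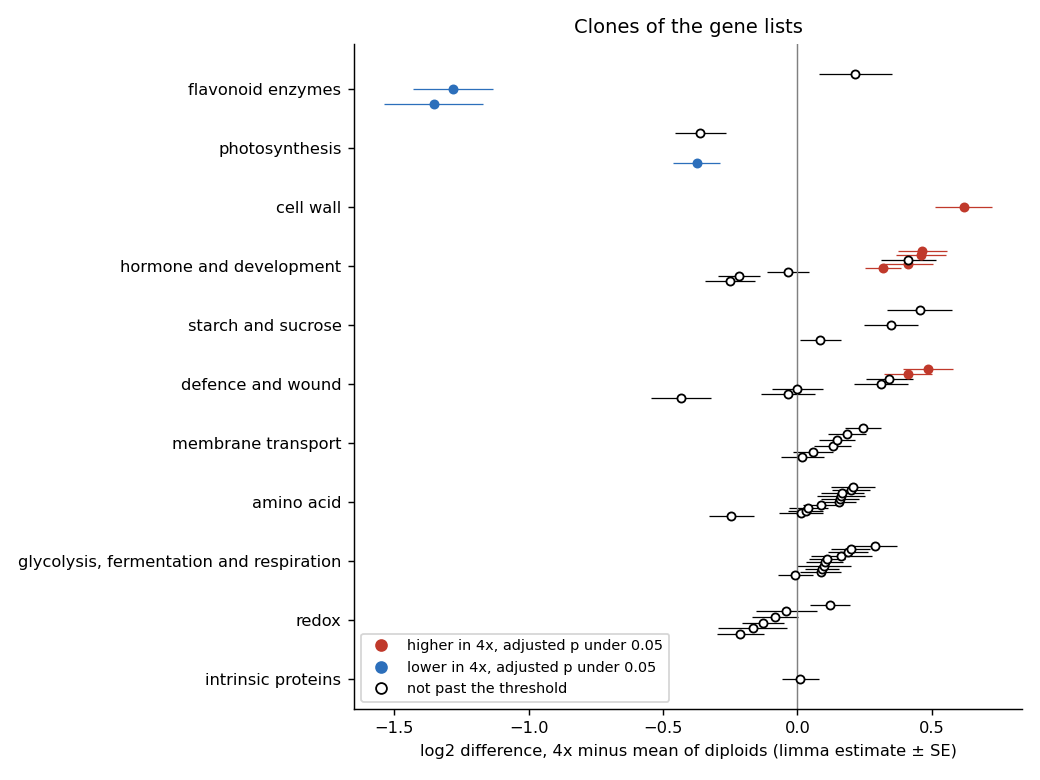
The 58 tested clones of the 11 gene lists, by limma estimate of the log2 difference, 4x minus mean of diploids (horizontal axis; bars are SE). Filled points passed the threshold, red higher and blue lower in 4x, and open points did not. The falls lie in the flavonoid and photosynthesis lists, and the rises in the cell wall, hormone and defence lists. What SRE1A (hormone list), SI1 and R1 (defence list) encode was not established here.

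The other genes with calls carry locus symbols without a description. The largest rise among them was LOC102577928, by 1.03 in each of its 2 clones (limma, adjusted p = 0.0076 and 0.0089), or 2.05-fold. LOC102577928 clone 2 stood at 1.04 and 1.23 on the 2xR3 arrays and at 1.36 and 0.95 on the 2xR5 arrays, and clone 1 at 0.91 and 1.14 against 2xR3 and at 1.47 and 1.15 against 2xR5. All 8 ratios of this gene exceeded 0.9. LOC102584296 rose in all 3 of its clones, by 0.58 to 0.64 (limma, adjusted p = 0.014 to 0.021), and its 12 ratios lay between 0.40 and 1.08. LOC102602308 rose by 0.73 and 0.59 in clones 3 and 1. Its clone 2 stood at 0.62 and did not pass (limma, adjusted p = 0.084), with a ratio of -0.13 on the 2xR3 array of replicate 1 against 0.80 to 1.36 on the other arrays. LOC102584575 rose by 0.38 and LOC102577923 clone 1 by 0.30, the smallest named rise.

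Among the falls, LOC102577835 was lower in both clones, at -1.19 and -1.16 (limma, adjusted p = 0.0089 and 0.0096). LOC102577835 clone 1 stood at -1.25 and -0.66 on the 2xR3 arrays and at -1.85 and -1.62 on the 2xR5 arrays, and the 2xR5 array was the lower one in each replicate. LOC102604256 stood at -1.28 and -0.59 on the 2xR3 arrays and at -1.44 and -0.83 on the 2xR5 arrays, with an estimate of -1.10 ± 0.21 (limma, adjusted p = 0.019). Its replicate 1 was the lower one against either diploid. LOC102606273, LOC102601295 clone 1 and LOC102577581 fell by 0.40 to 0.49. LOC102598069 clone 4 fell by 0.50, while the other 4 clones of that symbol stood between 0.02 and 0.08 and did not pass. Of the 10 named genes with several clones tested, 6 had more than 1 clone past the threshold, 3 had every clone past it, and FLS and LOC102598069 had clones on both sides of 0.

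Clones without a symbol held the largest fall of all. It stood at -1.01 and -0.93 on the 2xR3 arrays and at -2.26 and -2.33 on the 2xR5 arrays, with an estimate of -1.52 ± 0.17 (limma, adjusted p = 0.0046), 2.87-fold. Its difference from 2xR5 was -2.01 and that from 2xR3 was -1.02. The next fall, of another clone without a symbol, was -1.41, with -0.67 and -0.82 on the 2xR3 arrays and -2.18 and -2.32 on the 2xR5 arrays. In both clones the 2xR5 arrays lay lower than the 2xR3 arrays in each replicate, and the test of 2xR5 against 2xR3 did not pass (limma, adjusted p = 0.21 for each).

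Against the single diploid lines, F3H, FLS clone 4, PME1 and both LOC102577928 clones differed in 4x whichever line was used. So did LOC102577581, LOC102584296 clone 2, LOC102577835 clone 1 and SI1 clone 3. Of these, LOC102577835 clone 1 and SI1 clone 3 passed only narrowly against 2xR3 (limma, adjusted p = 0.049 and 0.0499). Against 2xR3, 116 clones passed (1.93%), 73 higher (1.22%) and 43 lower (0.717%) in 4x. Against 2xR5, 143 passed (2.38%), 74 higher (1.23%) and 69 lower (1.15%). Both comparisons use the same 4x samples. They share 68 calls, all with the same sign, which are 58.6% of the 2xR3 calls and 47.6% of the 2xR5 calls. The plot of both line differences shows them for each clone.

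**Figure D3:**
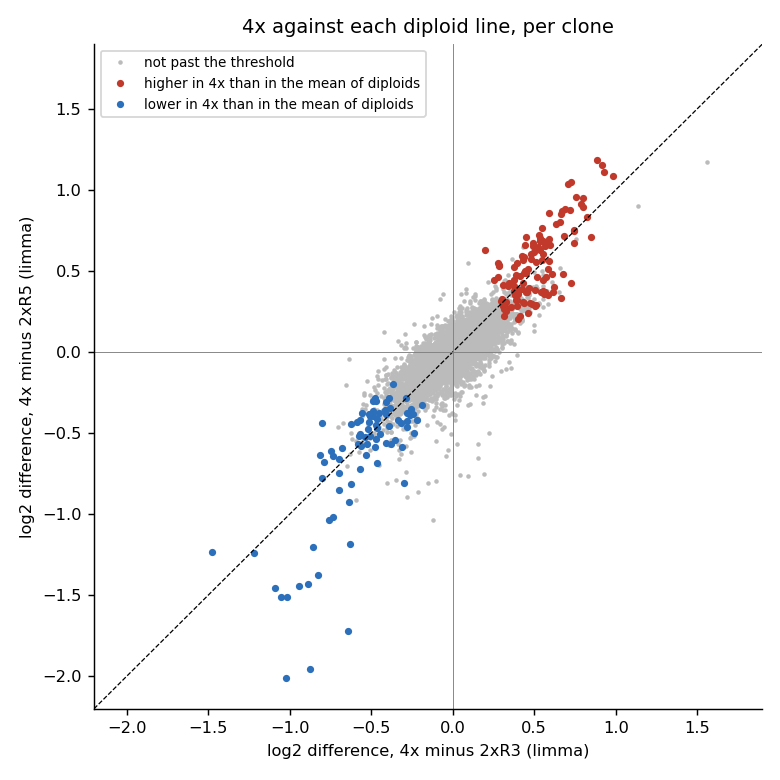
Log2 difference of 4x minus 2xR3 (horizontal axis) and of 4x minus 2xR5 (vertical axis) for each of the 6001 clones, as limma estimates. Red and blue points are the 117 clones higher and the 81 lower in 4x than in the mean of the diploids, grey points the rest, and the dashed line marks equal differences. The clones with the largest falls from 2xR5 lie below the dashed line, with a smaller fall from 2xR3.

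F3H fell by 1.48 against 2xR3 and by 1.23 against 2xR5 (limma, adjusted p = 0.011 and 0.012). FLS clone 4 fell by 1.05 against 2xR3 and by 1.51 against 2xR5 (limma, adjusted p = 0.016 and 0.0030). For ERS the difference from 2xR3 passed, at 0.41 (limma, adjusted p = 0.029), and that from 2xR5, at 0.22, did not (adjusted p = 0.15). CYCD3.3 had it the other way round, at 0.29 from 2xR3 (adjusted p = 0.14) and 0.54 from 2xR5 (limma, adjusted p = 0.024). The test of such differences between the lines, 2xR5 against 2xR3, gave 0 calls of 6001 (0.0%) in limma, with 518 clones at an unadjusted p under 0.05, and the lowest adjusted p among the 26 named clones was 0.48. Of those, 6 had an unadjusted p under 0.05, namely FLS clone 4, both LOC102577835 clones, LOC102604256, ERS and CYCD3.3.

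Only against 2xR5 did 4 further clones with 1 symbol pass, and they were singled out after their values were seen. LOC102577893 clone 1 differed by -0.79 from 2xR5 (limma, adjusted p = 0.032) and by -0.35 from 2xR3. Its ratios were -0.67 and 0.06 on the 2xR3 arrays and -0.95 and -0.94 on the 2xR5 arrays, so only the 2xR3 array of replicate 2 was not below 0. STWRKY8 clone 1 differed by -0.54 from 2xR5 (adjusted p = 0.045) and by -0.32 from 2xR3. LOC102587499 clones 4 and 5 differed from 2xR5 by -0.47 and -0.45 (limma, adjusted p = 0.039 and 0.032), and no clone with 1 symbol passed against 2xR3 without also passing against the mean.

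The ratios of the 4 arrays also carried a dye effect, with a spread across clones near that of the line differences. After all were turned to 4x over diploid, the 2 arrays with 4x in Cy5 correlated at r = 0.68 across the 6001 clones and the 2 with 4x in Cy3 at r = 0.51, although each of these pairs differs in replicate and in diploid line. The 2 arrays of a replicate share their 4x RNA but have opposite dyes, and correlated at r = 0.09 and 0.21. The 2 arrays of a diploid line correlated at r = 0.12 and 0.01. Clones are not independent replicates, and these values describe the arrays. The dye effect of a clone, taken as the mean of the 4 ratios of a loop, correlated at r = 0.86 between replicates. Its SD across clones was 0.19 and 0.17, against 0.25 and 0.23 for 4x minus the diploids. The plot of array pairs and dye effects shows both. The dye effect cancels in the mean of the 2 arrays of a replicate, in which 4x carries each dye once.

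**Figure D4:**
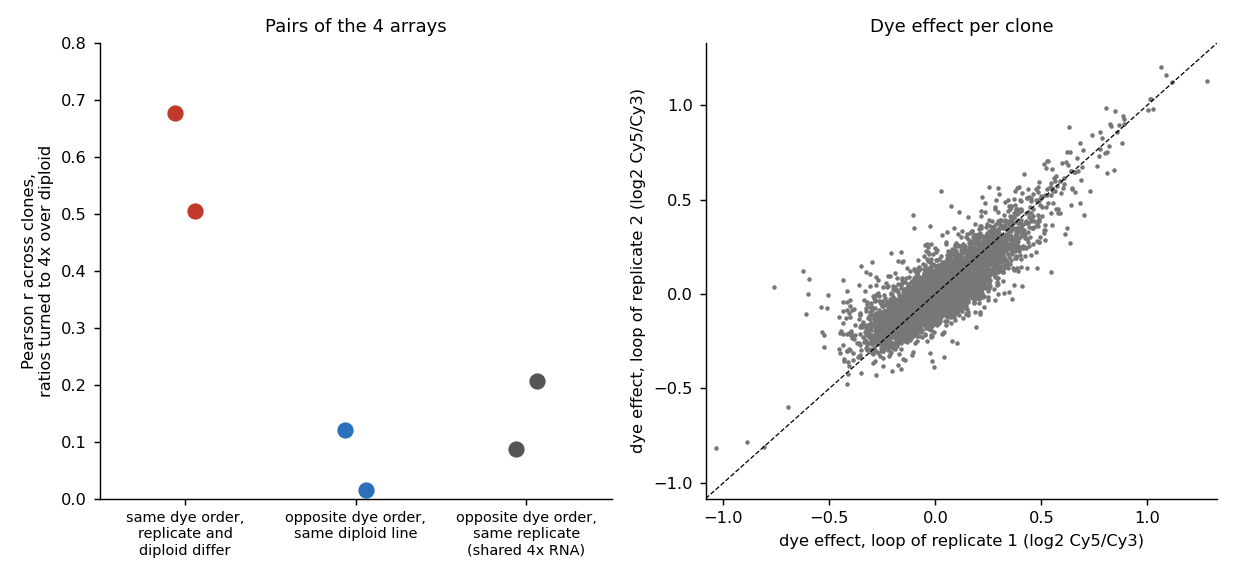
Left, Pearson r across 6001 clones for each of the 6 pairs of the 4 arrays, with ratios turned to 4x over diploid, grouped by dye order and shared RNA. Right, dye effect of each clone in the loop of replicate 1 (horizontal axis) and of replicate 2 (vertical axis), as log2 Cy5 over Cy3; the dashed line marks equality. The 2 pairs with the same dye order lie at 0.68 and 0.51, and the 4 pairs with opposite dye order between 0.01 and 0.21.

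With the dye effect cancelled, the replicates were more alike. Replicate 1 and replicate 2 correlated at r = 0.59 across clones for 4x minus the mean of the diploids, at 0.48 for 4x minus 2xR3 and at 0.61 for 4x minus 2xR5. All 198 called clones had the same sign in both replicates, 195 in all 4 loop values and 177 on all 4 arrays as measured, against 67.5%, 43.7% and 25.7% of all clones. These counts describe clones that the test selected for such agreement. F3H stood at -1.80 in replicate 1 and -0.82 in replicate 2, and FLS clone 4 at -1.64 and -1.20. PME1 stood at 0.54 and 0.82. The estimate against the mean of the diploids takes from replicate 3 only the arrays of 1x with 4x. It can therefore lie outside both values, as it does for 5 of the 26 named clones. The replicate 3 arrays of 2xR3 with 2xR5 enter the differences from each single diploid line and the spread behind the p-values. The plot of both replicates shows all clones.

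**Figure D5:**
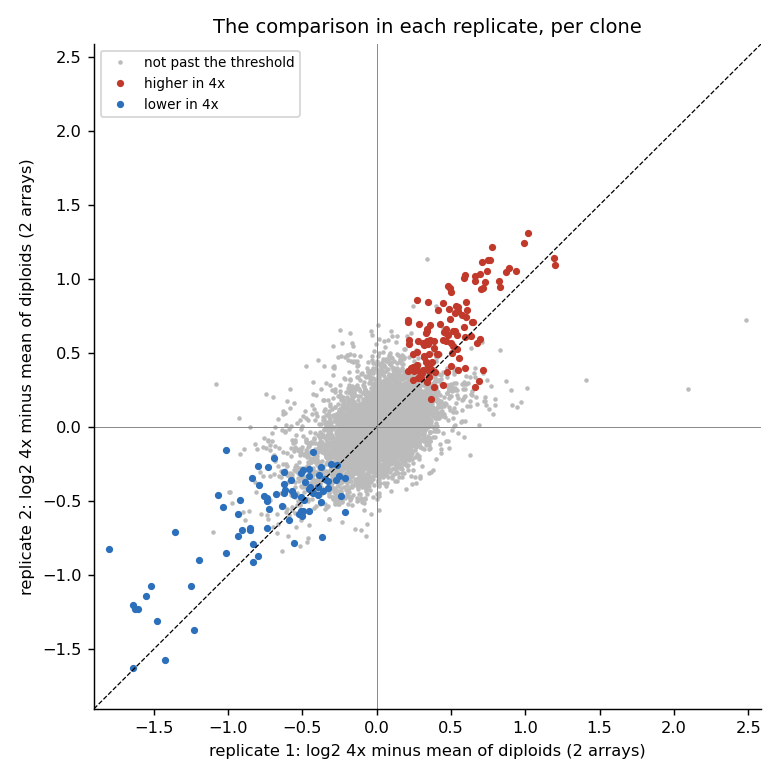
Log2 4x minus mean of the diploids in replicate 1 (horizontal axis) and in replicate 2 (vertical axis) for the 6001 clones, each value the mean of the 2 direct arrays of a replicate. Red and blue points are clones higher and lower in 4x, grey points did not pass, and the dashed line marks equality. All 198 called clones lie at the lower left, below 0 in both, or at the upper right, above 0 in both.

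In root tips, 0 of the 13 named clones measured there passed for 4x against the diploids, where 0 of 8245 clones passed in all (0.0%; limma, 582 at an unadjusted p under 0.05). A joint limma fit of leaf and root tested the difference between the tissues and called 74 of 5121 clones (1.45%). Of the 13 named clones 6 were called: SRE1A clones 1 and 3, CYCD3.3, LOC102577581, LOC102602308 clone 3 and LOC102584296 clone 3. The named clones were picked by the same leaf values that this difference uses, so their share of calls is raised by that choice and tests nothing.

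The calls need both replicates. Without replicate 1 the limma fit called 0 of 6001 clones and without replicate 2 it called 1, F3H, and the 26 named clones kept their direction in both fits. F3H stood at -0.90 without replicate 1 (limma, adjusted p = 0.12) and at -1.85 without replicate 2 (adjusted p = 0.0032). LOC102601295 clone 1 stood at -0.27 without replicate 1, and LOC102584296 clone 2 at 0.43 without replicate 2. Dividing cells and green tissue were each read from only 1 gene in the fit of all leaf arrays: the cyclin CYCD3.3 rose and PSBR fell in 1 of 2 clones. Both calls were lost with scaled arrays, and marker lists by keyword could not be applied. CYCD3.2 stood at 0.50 and PPO clone 1, of a polyphenol oxidase that marks wounded tissue, at 0.04 in the fit on replicates 1 and 2 alone (limma, adjusted p = 0.030 and 0.85). The part of such cells in the other differences was not tested.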

How the data were processed

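The authors deposited a log2 ratio of the 2 channels for each spot. They processed the arrays with limma, per the submitters' processing notes, but its version, the background correction and the method within arrays are steps not given in the sources used here. Each array's median was within 0.014 of 0. The table holds 32448 spots, read from the print layout as 15360 duplicate pairs. A pair is called a clone here, and its measured spots were averaged. Duplicate spots correlated at 0.652 to 0.776 on the 4 direct arrays. Spot intensities, dim spots and slides were not used here.

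Leaf replicates 1 and 2 are closed loops of 4 arrays (1x, 2xR3, 4x, 2xR5) in which every line carries each dye once, so only 2 replicates hold direct arrays. Each loop was solved by least squares for its lines, which removes a clone's dye effect. Replicate 3 holds dye-swapped pairs, 1x with 4x and 2xR3 with 2xR5, each its own block. The line values entered limma (version 3.58.1, R 4.3.3; lmFit and eBayes) with line and replicate block as terms and 5 residual degrees of freedom, after checks on simulated data. P-values were adjusted by Benjamini-Hochberg over the 6001 clones with a value on all 12 leaf arrays; no value was imputed. Precision is set by the few arrays, with a median SE of 0.08 for 4x minus the mean of the diploids. No ratio spans 2 replicates, so the replicate block follows from the design and no pairing of numbers had to be checked.

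The named clones are all called clones with exactly 1 symbol and the same sign in both loops. Every tested clone of 11 lists is described with them. The platform annotation, which can be old, leaves 30638 spots without a symbol, gives several for 180 and exactly 1 for 1630. It has no descriptions, so lists by keyword could not be applied. Members and lists were chosen with earlier results of these data known. Alternatives left out each replicate, used only the 4 direct arrays, scaled the arrays, used robust eBayes, allowed missing values (a value on 75% of arrays), required both spots, dropped the replicate block or added a dye term. The fits of the 4 direct arrays, with missing values, with no replicate block and with the dye term took each array as a separate value. These had no replicate block, and of them only the last removed the dye effect from the spread. A fit on replicates 1 and 2 with all 8222 of their clones was added after seeing the data.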

Additional observations from a re-analysis of the deposited data

Results flagged for a closer look

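The comparison of 4x with the mean of the diploids differed between leaf and root tips for some clones, by the interaction term of a joint limma fit over 5121 clones measured in both tissues, in which 74 passed (1.45%). Without replicate 2 this fit called 0 clones. No root value by itself passed. Per the labels the root RNA was amplified, so tissue and amplification cannot be told apart. The leaf minus root difference was 0.62 for SRE1A clone 1 and 0.59 for SRE1A clone 3, which stood at 0.46 in leaf for each and at -0.15 and -0.13 in root. It was 0.68 for CYCD3.3 (leaf 0.41, root -0.27), 1.03 for LOC102602308 clone 3 (leaf 0.73, root -0.30) and 0.91 for LOC102584296 clone 3 (leaf 0.58, root -0.33). It was -0.43 for LOC102577581 (leaf -0.40, root 0.03). In the lists, ADH1, an alcohol dehydrogenase, had a leaf minus root difference of 2.59, with 0.16 in leaf and -2.43 in root, where both replicates stood at -2.41 and -2.45. The leaf value did not pass (limma, adjusted p = 0.39).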

How the results depend on the processing

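The 26 named clones kept their direction under every alternative that fitted them. With robust eBayes, or with the dye term and no replicate block, all 26 calls were kept. The fit that required both spots on every array held 25 of the 26 and kept their calls. FLS clone 4 was not in that fit, since it lacked a spot value on some leaf array. Of the list clones without a call, 10 changed sign under some alternative, all within 0.17 of 0 in the main result. The count for 4x minus the mean of the diploids, 198, was 130 with scaled arrays (16 of 26 named calls kept, with PSBR clone 6, ERS, CYCD3.3 and both SI1 calls among those lost), 46 with only the 4 direct arrays (8 kept), 324 under the 75% rule for missing values, 343 with no replicate block, 494 with the dye term and 483 on replicates 1 and 2 with every clone, of which 175 were among the 198. Leaving out each replicate in turn gave 0 to 520 (520 without replicate 3, with 26 named calls kept). The share higher in 4x was 59.1%, against 45.7% on the 4 arrays, 47.3% without replicate 3 and 43.1% on replicates 1 and 2 with every clone. For 4x minus 2xR3, 116, it was 33 scaled (39.4% higher, against 62.9%), 0 on the 4 arrays (limma, with 2 residual degrees of freedom), 267 with the dye term, 435 on replicates 1 and 2 with every clone, and 0 to 478 with a replicate left out. For 4x minus 2xR5, 143, it was 10 on the 4 arrays, 221 with no replicate block, 302 with the dye term and 0 to 201 with a replicate left out. For 2xR5 minus 2xR3, 0, it was 4 scaled, 7 on replicates 1 and 2 with every clone and 0 to 4 with a replicate left out. For leaf minus root, 74, it was 0 to 115 (0 without replicate 2, 43 without replicate 1). Leaving out a replicate or arrays removes samples by construction. The fits with the 75% rule and with the dye term also had no replicate block. Like the fit with no replicate block, they took each array as a separate value, although arrays share RNA samples. The counts with the dye term are therefore not the effect of that term alone. The fits of the 4 arrays, of the 75% rule and with no replicate block leave the dye effect in the spread. The cause of the other moves was not tested. Signal over background was not used here.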

Other observations

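Replicate 3 had fewer spots with a value, and 2221 further clones were measured on all arrays of replicates 1 and 2. In the added limma fit on these replicates, 483 of 8222 clones passed (5.87%), 104 of them among clones without a complete replicate 3. CYCD3.2, another D-type cyclin, was one of them. It stood at 0.89 and 0.43 on the 2xR3 arrays and at 0.11 and 0.55 on the 2xR5 arrays, all above 0, and rose by 0.50 ± 0.11 (limma, adjusted p = 0.030). STWRKY8 clone 2 fell there by 0.36 (adjusted p = 0.042), while GRX2, a glutaredoxin, stood at -0.27 and XIP1-1-BETA, an X-intrinsic protein, at 0.02 and did not pass (limma, adjusted p = 0.18 and 0.93). These 4 belong to the 11 list clones without a complete replicate 3, of which 2 passed.

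PR1B and LOC102577576 were singled out after their values were seen. PR1B clone 2, of a pathogenesis-related protein, stood at -1.05 and -0.41 on the 2xR3 arrays and at -1.88 and -0.93 on the 2xR5 arrays. All 4 ratios were below 0, the 2xR5 array was the lower one in each replicate, and the clone fell by 1.07 ± 0.21 (limma, adjusted p = 0.022). LOC102577576 had ratios of 2.85 and 0.81 on the 2xR3 arrays and 2.13 and 0.63 on the 2xR5 arrays, so replicate 1 was far above replicate 2. It passed on replicates 1 and 2 alone, at 1.60 ± 0.32 (limma, adjusted p = 0.022), and stood at 1.37 with replicate 3 in the fit, where it did not (adjusted p = 0.060).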
